A study of Homo sapiens with 8 samples.

Results

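The genes described here belong to 7 solute carrier families known for amino acid or peptide transport, SLC1, SLC6, SLC7, SLC15, SLC36, SLC38 and SLC43. They were taken by symbol from a table of log2 CPM values (CPM, the reads of a gene scaled to the size of its library) for 13730 genes: every SLC1A, SLC6A, SLC7A, SLC15A, SLC36A, SLC38A or SLC43A gene, without the cystine importer SLC7A11 and without 2 hyphenated antisense names. The rule found 27 genes, 4 of SLC1, 3 of SLC6, 7 of SLC7, 2 of SLC15, 2 of SLC36, 7 of SLC38 and 2 of SLC43. By its form the rule also takes 2 pseudogenes of SLC7A5 (SLC7A5P1 and SLC7A5P2). It takes SLC7A6OS too, a protein-coding gene on the strand opposite SLC7A6 that is not a transporter. Also among the 27 are SLC6A8 and SLC43A3, described below as carriers of creatine and of purine nucleobases. A mean log2 CPM of at least 0 over the 8 libraries was required for testing, which 13057 genes passed, 23 of the 27 among them. The 4 under that level were SLC7A5P1, SLC7A7, SLC15A2 and SLC38A5.

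The RNA came from LN229-TAZ(4SA), a glioblastoma cell line whose name marks the TAZ(4SA) construct, carried by all groups. The 4 groups of 2 libraries each were TrxR1 knockout (KO) cells in glucose-deprived medium, control (EV) cells in glucose-deprived medium, KO cells in regular medium and EV cells in regular medium. TrxR1 is the cytosolic thioredoxin reductase, a selenoprotein that keeps thioredoxin reduced. How many knockout clones were used, how long glucose was withdrawn and whether 2 libraries of a group came from separate cultures are not given in the sources used here, so the p-values stand for the spread among these 8 libraries only, and it may be technical. The libraries are called a and b within each group, as names only.

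Mammalian cells import amino acids through carriers with overlapping substrates. Sodium-coupled carriers of the SLC1, SLC6 and SLC38 families concentrate small neutral amino acids, glutamate or glycine inside the cell, and exchangers of the SLC7 family, built from a light chain and the heavy chain SLC3A2, trade them for leucine, arginine or cystine. Other members sit in the lysosome, where they release amino acids and report their level to the growth kinase mTORC1. When amino acids run short or the endoplasmic reticulum is stressed, translation factor eIF2 is phosphorylated and the transcription factor ATF4 is made, and several transporter genes are textbook targets of ATF4.

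Reads summed over the table ran between 70083018 and 107229069 per library. TXNRD1, the gene of TrxR1, had 370.4 and 350.8 CPM in KO glucose-deprived libraries, 508.7 and 492.7 CPM in EV glucose-deprived libraries, 244.9 and 249.5 CPM in KO regular libraries, and 262.8 and 260.6 CPM in EV regular libraries. In glucose-deprived medium its mRNA was lower in KO cells (log2 fold change −0.47, adjusted p = 2.0e-05), whereas the difference in regular medium did not pass (−0.08, adjusted p = 0.19). Counts of mRNA do not measure the TrxR1 protein. TXNIP, a gene that falls when glucose is withdrawn, had 8.46 and 8.43 CPM in KO glucose-deprived libraries against 77.3 and 81.9 CPM in KO regular libraries, and 11.04 and 9.91 CPM in EV glucose-deprived libraries against 85.5 and 87.1 CPM in EV regular libraries. Glioma line markers were present, with VIM between 2897 and 3696 CPM and CD44 between 995.9 and 1185 CPM over the 8 libraries, and GFAP at most 1.41 CPM. Of the 6 tested, 1 was higher and 4 lower with deprivation in KO and in EV cells. These are 83.3% in each, beside 73.3% of all genes tested in KO and 76.2% in EV cells. NES, an intermediate filament gene of neural precursors, had 437.0 and 435.9 CPM in KO glucose-deprived libraries against 846.0 and 860.2 CPM in KO regular libraries, and 376.2 and 395.2 CPM in EV glucose-deprived libraries against 786.6 and 788.4 CPM in EV regular libraries. SOX2, a transcription factor of neural stem cells, had 15.1 and 15.2 CPM in KO glucose-deprived libraries against 39.5 and 38.0 CPM in KO regular libraries, and 16.9 and 16.7 CPM in EV glucose-deprived libraries against 54.3 and 56.0 CPM in EV regular libraries. Both markers were lower in the glucose-deprived libraries of KO and of EV cells, NES by log2 fold changes of −0.97 in KO and −1.03 in EV cells and SOX2 by −1.35 in KO and −1.72 in EV cells. In regular medium SOX2 was lower in KO than in EV cells (log2 −0.51 ± 0.04, adjusted p = 1.3e-04) and EGFR higher (0.29 ± 0.04, adjusted p = 9.7e-04), and both calls held without any single library. In glucose-deprived medium 5 of the 6 were called for knockout (83.3%, beside 19.6% of all genes), and each of those calls was lost without at least 1 library. Of 14 markers of other cell types 4 had a row in the table, and PTPRC, LYZ, PECAM1, VWF, CDH5, STMN2, MBP, MOG, EPCAM and CDH1 had none. The summed level of those 4 was 2027 to 2167 CPM in KO glucose-deprived, 2316 to 2427 CPM in EV glucose-deprived, 1453 to 1574 CPM in KO regular and 1532 to 1574 CPM in EV regular libraries. Most of it was CD74, and the other 3 (SYT1, KRT8 and RBFOX3) summed to 65.9 to 68.4 CPM in KO glucose-deprived, 72.7 to 75.8 CPM in EV glucose-deprived, 27.5 to 27.7 CPM in KO regular and 30.5 to 32.6 CPM in EV regular libraries. All 3 of these markers that were tested (CD74, SYT1 and KRT8) rose with glucose deprivation in both KO and EV cells. Of all genes tested, 36.5% were called higher with deprivation in KO and 37.5% in EV cells. In KO against EV cells KRT8 was called lower in both media and CD74 in glucose-deprived medium. In regular medium KRT8 was no longer called when EV regular a (adjusted p = 0.054) or EV regular b (0.083) was left out, and CD74 in glucose-deprived medium lost its call without KO glucose-deprived b (0.12), EV glucose-deprived a (0.18) or b (0.071) and with no variance trend (0.088). The part of these markers in the results below was not tested.

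Summed over the 27 genes, transporter mRNA made up 5215 and 5290 CPM in KO glucose-deprived libraries against 3435 and 3274 CPM in KO regular libraries. In EV cells the sums were 5190 and 5077 CPM in glucose-deprived libraries against 3189 and 3174 CPM in regular libraries. Most of the gain lay in 3 families, SLC1, SLC7 and SLC38. SLC1 genes summed to 1453 ± 4.38 CPM in KO glucose-deprived, 1505 ± 11.5 CPM in EV glucose-deprived, 658.7 ± 23.2 CPM in KO regular and 639.9 ± 5.40 CPM in EV regular cells (SD, n = 2 each). SLC38 genes summed to 1185 ± 0.636 CPM in KO glucose-deprived, 1159 ± 16.1 CPM in EV glucose-deprived, 558.8 ± 0.0707 CPM in KO regular and 565.7 ± 0.643 CPM in EV regular cells. The SLC7 sums were 2109 ± 61.1 CPM in KO glucose-deprived, 2009 ± 46.0 CPM in EV glucose-deprived, 1582 ± 84.0 CPM in KO regular and 1476 ± 3.18 CPM in EV regular cells. SLC43 went the other way, with 180.6 ± 2.40 and 173.6 ± 4.29 CPM in KO and EV glucose-deprived cells against 280.3 ± 4.07 and 253.4 ± 2.55 CPM in KO and EV regular cells. Most of the SLC43 sum was SLC43A3, at 162.8 and 157.5 CPM in KO and EV glucose-deprived cells, while SLC43A1 rose. SLC36 sums also fell with deprivation, from 52.2 to 46.2 CPM in KO and from 47.2 to 44.6 CPM in EV cells. SLC15 sums fell from 18.3 to 15.9 CPM in KO cells and stayed at 18.4 CPM in EV cells. All of these sums weigh genes by transcript length as well as number, and no test was run on them.

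**Figure D1:**
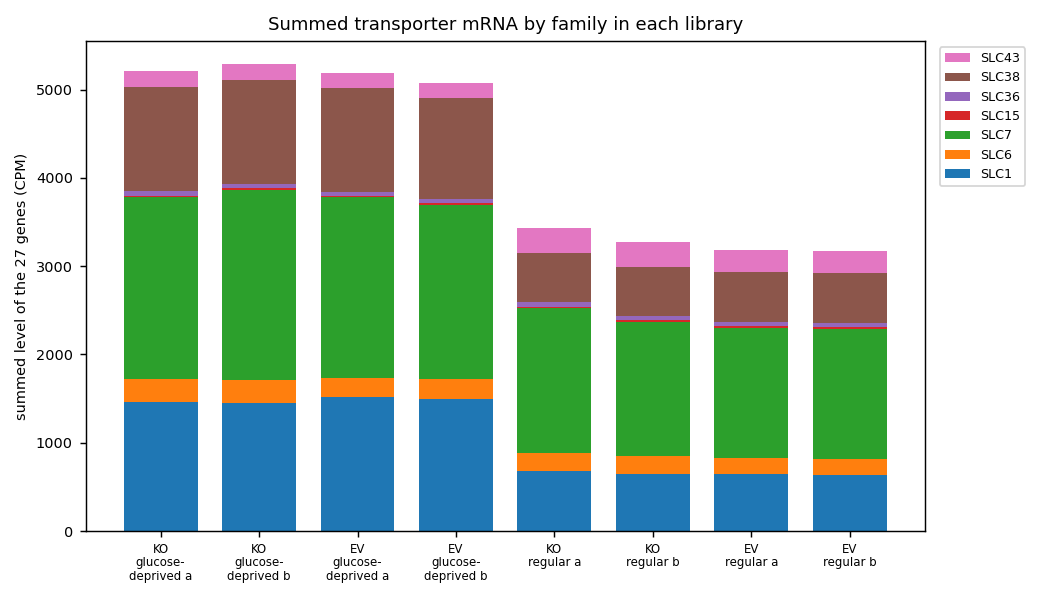
Summed level (CPM, vertical axis) of the 27 transporter genes in each of the 8 libraries (horizontal axis), stacked by solute carrier family. The 4 glucose-deprived libraries stand between 5077 and 5290 CPM and the 4 regular libraries between 3174 and 3435 CPM, with SLC7 the tallest layer in all 8.

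Levels were also divided by the kilobases (kb) of all exons annotated for a gene. That length can exceed the transcripts made, so close ranks are approximate. By that measure SLC7A5 (LAT1, the exchanger that brings in leucine and other large neutral amino acids) was the highest of the 27 in every group. It had 317.2 CPM per kb in KO glucose-deprived, 294.3 in EV glucose-deprived, 232.2 in KO regular and 222.9 in EV regular cells. SLC1A5 (ASCT2, a glutamine exchanger) came second in 3 groups, with 158.7 CPM per kb in KO glucose-deprived, 115.7 in KO regular and 98.6 in EV regular cells. In EV glucose-deprived cells SLC1A4 (ASCT1, an alanine, serine and cysteine carrier) at 145.2 CPM per kb and SLC1A5 at 142.6 CPM per kb were next to each other. SLC43A3 held the third place in regular medium and the sixth in glucose-deprived medium, while SLC1A4 and SLC38A2 moved up. The lowest were SLC7A7, SLC15A2 and SLC38A5, each under 0.24 CPM per kb in all 4 groups.

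Glucose deprivation changed most transporter genes, in both directions. A call needs an adjusted p below 0.05 (limma, Benjamini-Hochberg adjustment over the 13057 genes). In KO cells 18 of the 23 tested genes were called, 11 higher and 7 lower, where 73.3% of all genes tested were called, 36.5% higher and 36.8% lower. In EV cells 19 were called, 11 higher and 8 lower, beside 76.2% of all genes (37.5% higher, 38.7% lower), so the shares, 78.3% in KO and 82.6% in EV cells, were near the background. No test was made of their sizes, and the median absolute log2 fold change was 0.48 for the 23 genes against 0.31 for all genes in KO cells, and 0.51 for the 23 against 0.34 for all genes in EV cells. A change of at least 1 on the log2 scale was called for 6 of the 23 in KO cells and for 6 in EV cells, where 7.8% of all genes reached it in KO and 9.47% in EV cells. They were the same genes in both, SLC6A9, SLC1A4, SLC38A2, SLC43A1 and SLC38A1 upward and SLC1A3 downward.

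**Figure D2:**
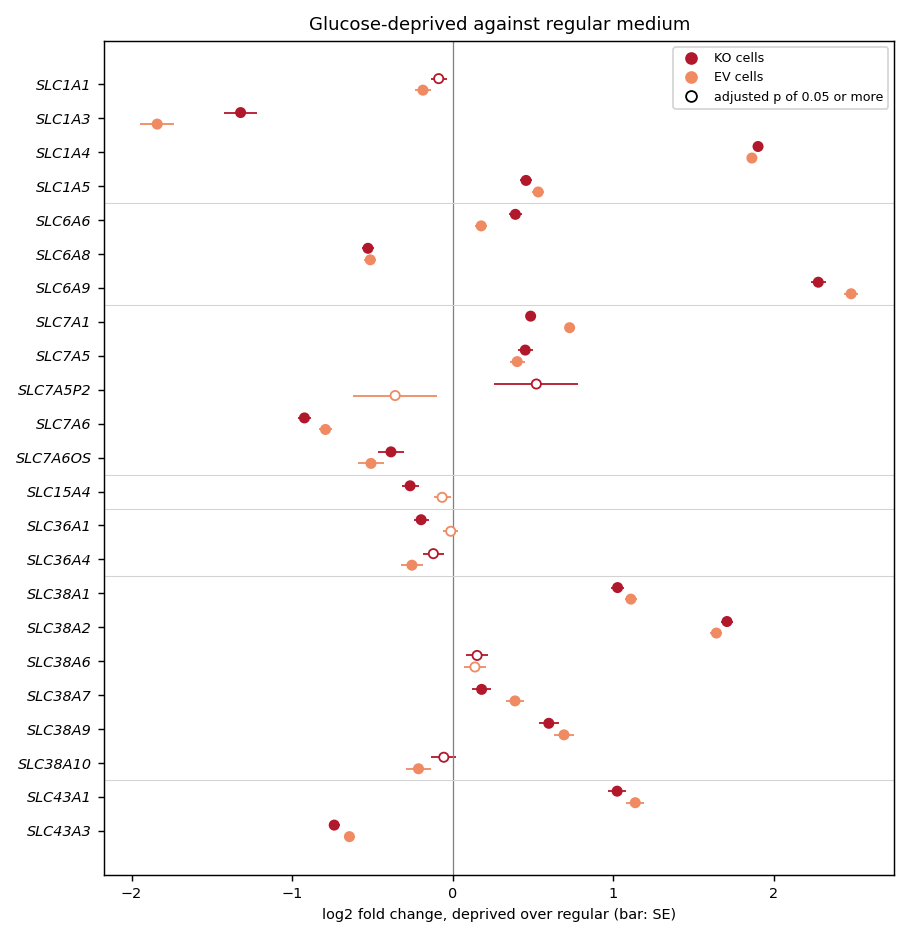
Log2 fold change of glucose-deprived over regular medium (horizontal axis) for each of the 23 tested genes (vertical axis, grouped by family), in KO cells and EV cells, with bars of 1 standard error and open symbols for an adjusted p of 0.05 or more. SLC6A9 stands farthest to the right at 2.28 in KO and 2.48 in EV cells, and SLC1A3 farthest to the left at −1.32 in KO and −1.84 in EV cells.

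Loss of TrxR1 had smaller effects. In regular medium 11 of the 23 genes were called in KO against EV cells, 9 higher and 2 lower (47.8%), beside 7.25% of all genes tested (3.87% higher, 3.38% lower), and the median absolute log2 fold change was 0.17 against 0.07 for all genes. None of the 23 reached a called change of 1 on the log2 scale, which 0.13% of all genes did. The count in regular medium rested on single libraries: it was 1 without EV regular a and 1 without EV regular b, 6 without KO regular a, and 7 without either EV glucose-deprived library, which enters only through the shared estimate of spread. Of the whole table, 168 genes were called without EV regular a, 198 without EV regular b, 517 without KO regular a, 581 without EV glucose-deprived a and 573 without EV glucose-deprived b, in place of 946. In glucose-deprived medium 6 of the 23 were called, 3 higher and 3 lower (26.1%), beside 19.6% of all genes (9.04% higher, 10.6% lower), a share near the background. That count was 3 without EV glucose-deprived a and 2 without EV glucose-deprived b, and 892 and 852 genes of the table were then called, in place of 2561. None reached a called change of 1 on the log2 scale there either, which 0.268% of all genes did. The KO regular and EV regular libraries are also the baselines of the comparisons between media, so these comparisons are not independent of each other.

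**Figure D3:**
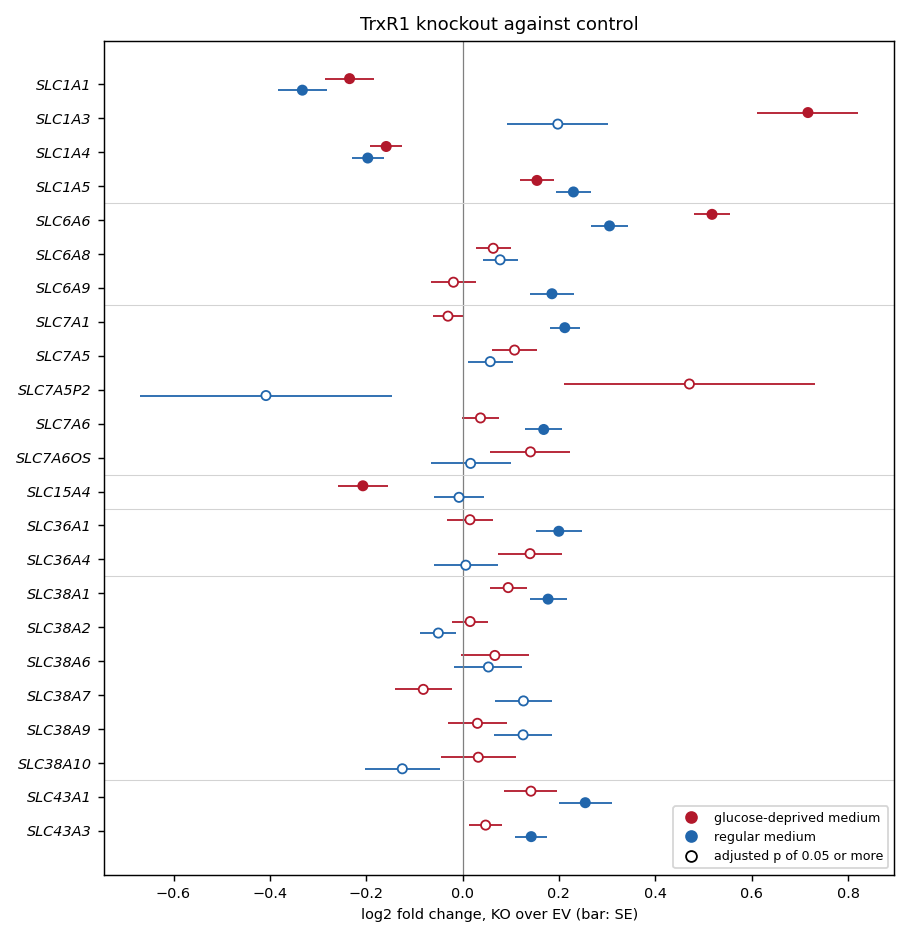
Log2 fold change of KO over EV cells (horizontal axis) for each of the 23 tested genes (vertical axis, grouped by family), in glucose-deprived and in regular medium, with bars of 1 standard error and open symbols for an adjusted p of 0.05 or more. SLC1A3 and SLC6A6 lie farthest to the right in glucose-deprived medium, at 0.72 and 0.52, and SLC1A1 lies at −0.23 and −0.33 in glucose-deprived and regular medium.

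SLC38A2 (SNAT2, a sodium-coupled importer of alanine, glutamine and other neutral amino acids that is known to be induced by amino acid starvation) lies on chromosome 12 of GRCh38, 46358189 to 46372867, minus strand. It had 738.6 and 710.3 CPM in KO glucose-deprived libraries against 214.8 and 229.1 CPM in KO regular libraries, and 721.6 and 711.4 CPM in EV glucose-deprived libraries against 229.9 and 229.5 CPM in EV regular libraries. The groups in the 2 media were far apart, and the fold changes were 3.26 in KO cells (log2 1.71 ± 0.04, SE, adjusted p = 8.8e-11) and 3.12 in EV cells (log2 1.64 ± 0.04, adjusted p = 1.1e-10). KO and EV libraries were close in each medium, with log2 fold changes of 0.02 in glucose-deprived medium (95% interval −0.07 to 0.10, adjusted p = 0.80) and −0.05 in regular medium (−0.13 to 0.03, adjusted p = 0.45).

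SLC38A1 (SNAT1, a glutamine importer of the same family) is a neighbour of SLC38A2 on chromosome 12, 46183063 to 46270017, minus strand. Its level was 239.0 and 233.3 CPM in KO glucose-deprived libraries against 113.2 and 118.8 CPM in KO regular libraries, and 226.7 and 215.7 CPM in EV glucose-deprived libraries against 102.2 and 102.8 CPM in EV regular libraries. Deprivation raised it 2.04-fold in KO cells (adjusted p = 4.1e-09) and 2.16-fold in EV cells (adjusted p = 2.1e-09). In regular medium both KO libraries were above both EV libraries (log2 fold change 0.18 ± 0.04, adjusted p = 0.022). That call was lost without KO regular b (adjusted p = 0.071), EV regular a (0.19) or EV regular b (0.16), and with no variance trend in the fit (0.084).

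SLC1A4 (ASCT1; chromosome 2, 64988477 to 65023865, plus strand) showed opposite signs for medium and knockout. It had 911.7 and 893.1 CPM in KO glucose-deprived libraries and 1009 and 1005 CPM in EV glucose-deprived libraries, against 247.4 and 236.1 CPM in KO regular libraries and 280.0 and 274.1 CPM in EV regular libraries. Deprivation raised it 3.73-fold in KO cells (log2 1.90 ± 0.03, adjusted p = 1.7e-11) and 3.64-fold in EV cells (log2 1.86 ± 0.03, adjusted p = 1.9e-11). KO cells were below EV cells in both media, by log2 fold changes of −0.16 ± 0.03 in glucose-deprived medium (adjusted p = 0.0095) and −0.20 ± 0.03 in regular medium (adjusted p = 0.0077). Neither KO library overlapped the EV libraries of its medium. The call in glucose-deprived medium was lost without EV glucose-deprived a (adjusted p = 0.081) or b (0.072), and that in regular medium without EV regular a (0.13) or b (0.070) and with no variance trend (0.055).

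SLC1A5 (ASCT2; chromosome 19, 46774883 to 46788594, minus strand), the closest relative of SLC1A4 among the 27, was higher in KO cells instead. Its level was 522.0 and 535.4 CPM in KO glucose-deprived libraries, 481.9 and 468.2 CPM in EV glucose-deprived libraries, 396.7 and 374.4 CPM in KO regular libraries, and 329.8 and 327.4 CPM in EV regular libraries. All 4 groups stood apart from each other. Deprivation raised it by 0.46 ± 0.04 (log2) in KO cells (adjusted p = 9.6e-07) and by 0.53 ± 0.04 in EV cells (adjusted p = 2.7e-07). Knockout raised it by 0.15 ± 0.04 in glucose-deprived medium (adjusted p = 0.015) and by 0.23 ± 0.04 in regular medium (adjusted p = 0.0050). In glucose-deprived medium the call was lost without KO glucose-deprived b (adjusted p = 0.057), EV glucose-deprived a (0.063) or EV glucose-deprived b (0.14), and with no variance trend (0.061). In regular medium it was lost without EV regular a (0.066) or b (0.075).

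**Figure D4:**
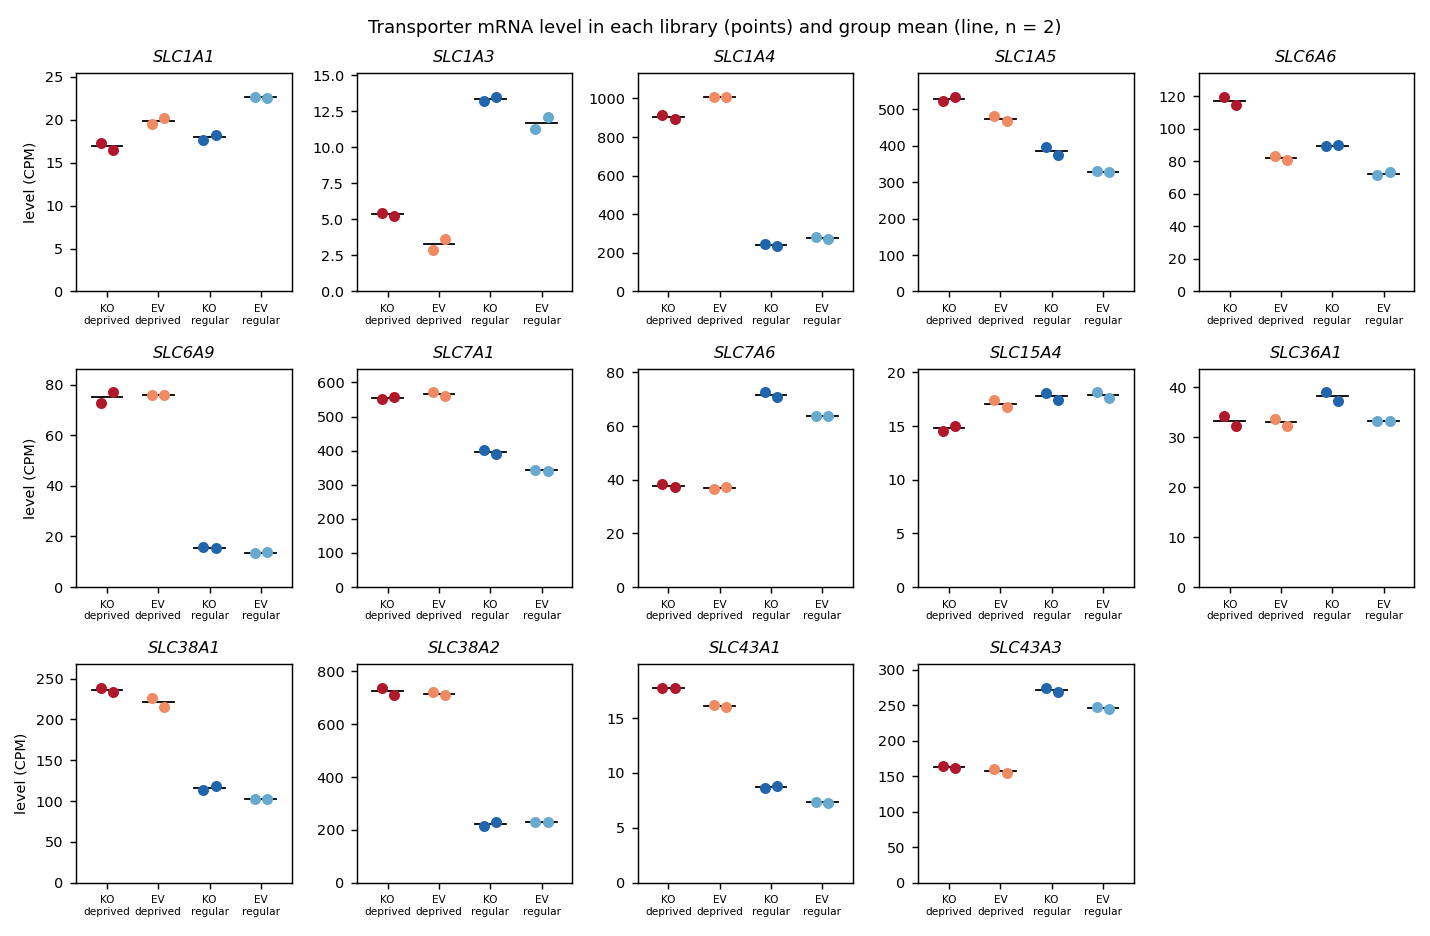
Level (CPM, vertical axes from 0) of 14 transporter genes in each library (points) with the mean of the 2 libraries of a group (line), for KO glucose-deprived, EV glucose-deprived, KO regular and EV regular cells from left to right. SLC6A9, SLC1A4 and SLC38A2 are high in the 4 glucose-deprived libraries, SLC1A3, SLC7A6 and SLC43A3 in the 4 regular ones, and SLC6A6 is higher in KO than in EV cells in both media.

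Of the SLC6 genes, SLC6A9 (GlyT1, the sodium- and chloride-coupled glycine transporter; chromosome 1, 43991500 to 44031467, minus strand) had the largest rise of the 23 tested genes. It had 72.9 and 77.1 CPM in KO glucose-deprived libraries against 15.7 and 15.3 CPM in KO regular libraries, and 75.8 and 76.1 CPM in EV glucose-deprived libraries against 13.3 and 13.9 CPM in EV regular libraries. The change was 4.84-fold in KO cells (log2 2.28 ± 0.05, adjusted p = 4.5e-11) and 5.58-fold in EV cells (log2 2.48 ± 0.05, adjusted p = 2.2e-11). In regular medium KO cells were slightly above EV cells (0.19 ± 0.05, adjusted p = 0.038). This was the call nearest to the threshold among the 11. It was lost without KO regular a (adjusted p = 0.11), KO regular b (0.052), EV regular a (0.30), EV regular b (0.13), EV glucose-deprived a (0.082) or EV glucose-deprived b (0.083). It was also lost in 3 other fits: with no variance trend (0.079), with only the compared groups (0.097) and with voom weights (0.094). In glucose-deprived medium the KO and EV libraries overlapped. CCDC24 overlaps SLC6A9 on the opposite strand, over 5029 bases of gene span with introns included. The libraries do not mark strand, so reads of the 2 genes in the shared bases cannot be told apart.

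SLC6A6 (TauT, the taurine transporter; chromosome 3, 14402576 to 14489349, plus strand) was higher in KO cells in both media. Its level was 119.9 and 115.0 CPM in KO glucose-deprived libraries against 83.4 and 80.6 CPM in EV glucose-deprived libraries, and 89.4 and 89.9 CPM in KO regular libraries against 71.3 and 73.7 CPM in EV regular libraries. KO cells were higher by 1.43-fold in glucose-deprived medium (log2 0.52 ± 0.04, adjusted p = 1.7e-05) and by 1.24-fold in regular medium (log2 0.30 ± 0.04, adjusted p = 0.0013). It was the only gene of the 11 whose call in regular medium held in every alternative fit and without any single library. The gap between the media in the knockout effect did not pass (0.21 ± 0.05, adjusted p = 0.055). Deprivation raised SLC6A6 by 0.39 ± 0.04 (log2) in KO cells (adjusted p = 5.0e-06) and by 0.18 ± 0.04 in EV cells (adjusted p = 0.0016). SLC6A8, the creatine transporter, fell with deprivation by 0.53 on the log2 scale in KO cells (adjusted p = 3.3e-07) and by 0.51 in EV cells (adjusted p = 3.7e-07), and was not called for knockout in either medium.

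The SLC7 genes split. SLC7A1 (CAT-1, the main importer of arginine and lysine; chromosome 13, 29509410 to 29595688, minus strand) had 552.7 and 556.1 CPM in KO glucose-deprived libraries, 571.6 and 560.8 CPM in EV glucose-deprived libraries, 401.8 and 390.6 CPM in KO regular libraries, and 342.7 and 341.4 CPM in EV regular libraries. The EV libraries were the lower pair in regular medium and the higher pair in glucose-deprived medium. Deprivation raised SLC7A1 1.40-fold in KO cells (log2 0.48 ± 0.03, adjusted p = 1.7e-07) and 1.66-fold in EV cells (log2 0.73 ± 0.03, adjusted p = 8.5e-09). KO cells were above EV cells in regular medium (0.21 ± 0.03, adjusted p = 0.0030), a call lost without EV regular a (0.057) or b (0.059). In glucose-deprived medium the difference was −0.03 (95% interval −0.10 to 0.04, adjusted p = 0.53).

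SLC7A1 was also the only gene of the 23 (4.35%) whose knockout effect was called different between the media, beside 4.31% of all genes tested (2.31% higher, 2.01% lower), a share at the background. The knockout effect in glucose-deprived medium was lower than that in regular medium by a log2 difference of −0.24 ± 0.04 (adjusted p = 0.013). The call was lost without EV glucose-deprived a (adjusted p = 0.096), EV glucose-deprived b (0.065), EV regular a (0.10) or EV regular b (0.096), and with no variance trend (0.076). The remaining 22 genes had differences between −0.21 and 0.88, with adjusted p of 0.055 to 0.95.

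SLC7A5 (LAT1; chromosome 16, 87830023 to 87869488, minus strand), the highest transporter per kilobase, rose with deprivation by 0.45 ± 0.05 (log2) in KO cells (adjusted p = 7.7e-06) and by 0.40 ± 0.05 in EV cells (adjusted p = 1.8e-05). Its level was 1464 and 1546 CPM in KO glucose-deprived libraries and 1424 and 1369 CPM in EV glucose-deprived libraries, against 1154 and 1049 CPM in KO regular libraries and 1059 and 1056 CPM in EV regular libraries. It was not called for knockout, at 0.11 in glucose-deprived medium (95% interval 0.0037 to 0.21 before adjustment, adjusted p = 0.13) and 0.06 in regular medium (−0.05 to 0.16, adjusted p = 0.49). SLC3A2, the heavy chain that carries SLC7A5 and SLC7A6 to the plasma membrane, had 1029 and 1139 CPM in KO glucose-deprived libraries, 842.2 and 806.9 CPM in EV glucose-deprived libraries, 481.0 and 447.5 CPM in KO regular libraries, and 382.2 and 372.8 CPM in EV regular libraries. SLC3A2 rose with deprivation by 1.22 ± 0.05 (log2) in KO cells (adjusted p = 8.7e-09) and by 1.13 ± 0.05 in EV cells (adjusted p = 1.4e-08). In glucose-deprived medium both KO libraries of SLC3A2 were above both EV libraries, a difference of 0.39 ± 0.05 (adjusted p = 7.2e-04) whose call held in every alternative fit and without any single library. In regular medium its difference between KO and EV cells of 0.30 ± 0.05 (adjusted p = 0.0081) lost the call without KO regular a (0.0501), EV regular a (0.062) or EV regular b (0.087) and with no variance trend (0.061).

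SLC7A6 (y+LAT2, an exchanger of cationic for neutral amino acids that also needs SLC3A2; chromosome 16, 68264516 to 68301823, plus strand) fell with deprivation. It had 38.3 and 37.4 CPM in KO glucose-deprived libraries against 72.7 and 70.9 CPM in KO regular libraries, and 36.5 and 37.2 CPM in EV glucose-deprived libraries against 63.9 and 63.8 CPM in EV regular libraries. The log2 fold change was −0.92 ± 0.04 in KO cells (adjusted p = 8.0e-09) and −0.79 ± 0.04 in EV cells (adjusted p = 2.1e-08). KO cells were above EV cells in regular medium (0.17 ± 0.04, adjusted p = 0.026). That call was lost without KO regular a (0.092), EV regular a (0.21), EV regular b (0.19), EV glucose-deprived a (0.057) or EV glucose-deprived b (0.057), and with no variance trend (0.065). SLC7A6OS overlaps SLC7A6 on the other strand, over 17321 bases of gene span with introns included. How many of these bases lie in exons was not counted. SLC7A6OS fell as well, by 0.38 on the log2 scale in KO cells (adjusted p = 0.0016) and by 0.51 in EV cells (adjusted p = 2.2e-04). With no strand in these libraries, reads of the pair in the shared bases cannot be told apart.

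SLC7A1 and SLC7A6, examples of genes higher in KO cells in regular medium, are shown with a stretch of promoter that holds the letters TGACNNNGC, the core of the antioxidant response element, the site of the transcription factor NRF2. Promoter windows of 250 bases before to 50 bases after the gene start came from RefSeq (GRCh38.p14), and 23 of the 27 genes had 37 windows. The match is in capitals, each stretch reads 5′ to 3′ on the gene's strand, and it lies at chr13:29595740-29595798 (minus strand) for SLC7A1 and chr16:68264304-68264362 (plus strand) for SLC7A6.
SLC7A1: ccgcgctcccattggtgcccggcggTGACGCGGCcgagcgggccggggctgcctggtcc
SLC7A6: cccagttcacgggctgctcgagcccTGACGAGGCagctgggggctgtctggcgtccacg
These letters were found, on either strand, in windows of 7 of the 23 genes: SLC1A3, SLC1A5, SLC7A1, SLC7A5, SLC7A6, SLC7A7 and SLC15A4. SLC7A6 held 2 matches, of which the one farther from the gene start is shown. SLC1A5, also higher in KO cells in regular medium, held a match on the opposite strand that is not shown. SLC1A3, SLC7A5 and SLC15A4 hold the letters but were not called for knockout in regular medium, and SLC7A7 was under the filter. SLC6A6 and SLC43A3, higher in KO cells in that medium, had no promoter window. SLC6A9, SLC36A1, SLC38A1 and SLC43A1 were higher there too and had a window, but without these letters. Of the genes with a window in the whole RefSeq table, 16.1% held them. Counted by window, 7 of the 37 held them, beside 13.3% of all windows. The letters TGATGNAAT, a form of the composite element bound by ATF4 with a C/EBP partner, were in 0 of the 37 windows and in 0.991% of all windows. The 2 motifs do not share a match. Other spellings of either motif were not searched, so the 0 holds for these letters only. A match in letters is a description of the window only, and elements outside it, such as those in introns, were not searched.

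The SLC43 pair lies side by side on chromosome 11, on the minus strand, and moved in opposite directions with deprivation. SLC43A1 (LAT3, a facilitator of branched-chain amino acids; 57484534 to 57515786) had 17.8 and 17.8 CPM in KO glucose-deprived libraries against 8.63 and 8.85 CPM in KO regular libraries, and 16.2 and 16.0 CPM in EV glucose-deprived libraries against 7.39 and 7.25 CPM in EV regular libraries. It rose 2.03-fold in KO cells (adjusted p = 5.1e-08) and 2.20-fold in EV cells (adjusted p = 2.2e-08). SLC43A3 (57406954 to 57427580), known as a purine nucleobase transporter in spite of its family, had 164.5 and 161.1 CPM in KO glucose-deprived libraries against 274.6 and 268.6 CPM in KO regular libraries, and 160.4 and 154.6 CPM in EV glucose-deprived libraries against 247.8 and 244.3 CPM in EV regular libraries. It fell by 0.74 on the log2 scale in KO cells (adjusted p = 1.6e-08) and by 0.64 in EV cells (adjusted p = 3.9e-08). Both were higher in KO than in EV cells in regular medium, SLC43A1 by 0.25 ± 0.06 (adjusted p = 0.022) and SLC43A3 by 0.14 ± 0.03 (adjusted p = 0.031). The call of SLC43A1 was lost without KO regular a (0.054), KO regular b (0.063), EV regular a (0.15) or EV regular b (0.17), and with only the compared groups (0.065). That of SLC43A3 was lost without KO regular a (0.1005), EV regular a (0.1995), EV regular b (0.24), EV glucose-deprived a (0.061) or EV glucose-deprived b (0.061), and with no variance trend (0.0996).

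SLC1A3 and SLC1A1, the glutamate transporters among the SLC1 genes, had knockout differences of opposite sign. SLC1A3 (EAAT1 or GLAST, the glutamate transporter typical of astrocytes; chromosome 5, 36606355 to 36688334, plus strand) had 5.45 and 5.24 CPM in KO glucose-deprived libraries and 2.86 and 3.67 CPM in EV glucose-deprived libraries, against 13.3 and 13.5 CPM in KO regular libraries and 11.3 and 12.1 CPM in EV regular libraries. Deprivation lowered it by a log2 fold change of −1.32 ± 0.10 in KO cells (adjusted p = 9.7e-07) and −1.84 ± 0.10 in EV cells (adjusted p = 7.2e-08), to the lowest level in EV glucose-deprived cells. There KO cells were 1.64-fold higher (log2 0.72 ± 0.10, adjusted p = 0.0015), and that call held without any single library and in every alternative fit. In regular medium the difference was 0.20 (95% interval −0.04 to 0.43, adjusted p = 0.28). The change of the knockout effect between media did not pass (0.52 ± 0.15, adjusted p = 0.076), except without EV glucose-deprived b, where it was 0.70 (adjusted p = 0.026).

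SLC1A1 (EAAT3, a glutamate transporter that also carries cysteine; chromosome 9, 4490444 to 4587469, plus strand) had 17.3 and 16.5 CPM in KO glucose-deprived libraries against 19.5 and 20.3 CPM in EV glucose-deprived libraries, and 17.7 and 18.2 CPM in KO regular libraries against 22.7 and 22.5 CPM in EV regular libraries. KO cells were lower in both media, with log2 fold changes of −0.23 ± 0.05 in glucose-deprived medium (adjusted p = 0.011) and −0.33 ± 0.05 in regular medium (adjusted p = 0.0042). The call was lost without KO glucose-deprived b (0.059) or EV glucose-deprived b (0.096) in glucose-deprived medium, and without EV regular a (0.063) or b (0.0506) in regular medium. Deprivation lowered SLC1A1 in EV cells (−0.19 ± 0.05, adjusted p = 0.0065), a call lost without EV glucose-deprived a (0.057), and in KO cells the change was −0.09 (adjusted p = 0.14). SPATA6L overlaps it on the opposite strand.

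SLC38A9, the arginine sensor of the lysosomal mTORC1 pathway, rose with deprivation by 0.60 ± 0.06 (log2) in KO cells (adjusted p = 6.3e-06) and by 0.69 ± 0.06 in EV cells (adjusted p = 1.8e-06). Its level was between 19.1 and 21.4 CPM in the 4 glucose-deprived libraries and between 12.1 and 13.4 CPM in the 4 regular ones. SLC38A7, which exports glutamine from lysosomes, rose by 0.18 ± 0.06 in KO cells (adjusted p = 0.018) and by 0.39 ± 0.06 in EV cells (adjusted p = 1.3e-04). In KO cells the call of SLC38A7 was lost without KO glucose-deprived b (0.12) or KO regular a (0.053).

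SLC15A4 (PHT1, which carries histidine and small peptides out of endosomes and lysosomes; chromosome 12, 128793191 to 128823983, minus strand) had 14.6 and 15.0 CPM in KO glucose-deprived libraries, 17.4 and 16.8 CPM in EV glucose-deprived libraries, 18.1 and 17.5 CPM in KO regular libraries, and 18.2 and 17.6 CPM in EV regular libraries. The KO glucose-deprived pair was the low one. It lay below EV cells in glucose-deprived medium (log2 −0.21 ± 0.05, adjusted p = 0.021) and below KO cells in regular medium (−0.27 ± 0.05, adjusted p = 8.9e-04). The first of these calls was lost without KO glucose-deprived a (0.064), EV glucose-deprived a (0.15) or EV glucose-deprived b (0.072). SLC36A1 (PAT1, a proton-coupled carrier of small neutral amino acids in lysosomes; chromosome 5, 151437046 to 151492381, plus strand) had 34.2 and 32.3 CPM in KO glucose-deprived libraries, 33.6 and 32.2 CPM in EV glucose-deprived libraries, 39.0 and 37.3 CPM in KO regular libraries, and 33.2 and 33.2 CPM in EV regular libraries. Here the KO regular pair was the high one, by 0.20 ± 0.05 over EV cells in regular medium (adjusted p = 0.031), and the log2 fold change with deprivation in KO cells was −0.20 ± 0.05 (adjusted p = 0.0032). The knockout effect of neither SLC15A4 nor SLC36A1 was called different between the media. The difference was −0.20 ± 0.07 for SLC15A4 (adjusted p = 0.14) and −0.18 ± 0.07 for SLC36A1 (adjusted p = 0.13). The knockout call of SLC36A1 was lost without KO regular a (0.12), EV regular a (0.21), EV regular b (0.19), EV glucose-deprived a (0.059) or EV glucose-deprived b (0.059), and with no variance trend (0.078).

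Of the other tested genes, SLC36A4, a proline and tryptophan carrier, was lower with deprivation in EV cells (−0.25 ± 0.07, adjusted p = 0.0052). SLC38A10 was lower there too (−0.21 ± 0.08, adjusted p = 0.027), a call lost without EV glucose-deprived a (0.079), EV glucose-deprived b (0.10), EV regular a (0.097) or EV regular b (0.070) and with no variance trend (0.082). SLC38A6 and the pseudogene SLC7A5P2 were called in none of the 5 comparisons. Over the genes not called, the log2 fold change lay between −0.12 and 0.52 for deprivation in KO cells (5 genes), between −0.36 and 0.14 for deprivation in EV cells (4 genes), between −0.08 and 0.47 for knockout in glucose-deprived medium (17 genes) and between −0.41 and 0.20 for knockout in regular medium (12 genes). The widest standard error among them was 0.26, that of SLC7A5P2. Its log2 fold changes ran between −0.41 and 0.52 over the 4 comparisons of groups, so its value is imprecise rather than shown to be small.

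The 4 genes under the filter had 0.42 to 1.71 CPM over all libraries. Fitted with no filter, SLC7A7 (y+LAT1, the close relative of SLC7A6) was higher with deprivation by 1.41 ± 0.24 (log2) in KO cells (adjusted p = 3.4e-04) and by 0.82 ± 0.24 in EV cells (adjusted p = 0.0095). Its level was 1.43 and 0.989 CPM in KO glucose-deprived libraries against 0.446 and 0.422 CPM in KO regular libraries, and 0.903 and 0.961 CPM in EV glucose-deprived libraries against 0.472 and 0.567 CPM in EV regular libraries. SLC15A2 (PepT2, an importer of small peptides) was higher by 1.07 ± 0.24 in KO cells (adjusted p = 0.0021) and by 1.23 ± 0.24 in EV cells (adjusted p = 8.1e-04), at 1.18 and 1.03 CPM in KO glucose-deprived libraries against 0.566 and 0.468 CPM in KO regular libraries, and at 1.252 and 1.391 CPM in EV glucose-deprived libraries against 0.446 and 0.675 CPM in EV regular libraries. SLC38A5, a glutamine and glycine carrier, was called in none of the 5 comparisons. The pseudogene SLC7A5P1 was called for knockout in glucose-deprived medium (1.05 ± 0.32, adjusted p = 0.046) and for deprivation in KO cells (0.96 ± 0.32, adjusted p = 0.019). Its 2 KO glucose-deprived libraries were far apart, at 0.844 and 1.71 CPM, and reads of SLC7A5 could be counted there.

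Genes that act with these transporters were listed alongside. Of 9 tested genes of the amino acid response, 7 rose and 2 fell with deprivation in both KO cells (median log2 fold change 1.73) and EV cells (1.78). All 9 were thus called in each genotype, beside 73.3% of all genes in KO and 76.2% in EV cells, and the median absolute log2 fold change over all genes was 0.31 in KO and 0.34 in EV cells. NUPR1 of the same list was under the filter and not tested. It had 4.67 and 4.24 CPM in KO glucose-deprived libraries against 0.120 and 0.160 CPM in KO regular libraries. In EV cells NUPR1 had 4.87 and 5.25 CPM in glucose-deprived libraries against 0.210 and 0.166 CPM in regular libraries. TRIB3, an ATF4 target that feeds back on it, was raised by 3.52 in KO and 3.55 in EV cells. CEBPG, a dimer partner of ATF4, was raised by 1.57 in KO and 1.49 in EV cells. The 2 that fell were ATF5, at −1.07 in KO and −0.99 in EV cells, and EIF2AK4, the kinase GCN2, at −0.52 in KO and −0.46 in EV cells. For knockout, 4 rose and 1 fell in glucose-deprived medium and 4 rose in regular medium. These are 55.6% and 44.4% of the list, beside 19.6% of all genes in glucose-deprived and 7.25% in regular medium, and 4 of the first 5 calls and 2 of the other 4 were lost without a single library. ATF3, a stress-induced factor, kept its calls, at 0.74 in glucose-deprived and 0.29 in regular medium. Its knockout effect was also called different between the media, and that call held in every alternative fit and without any single library. With ATF4, 2 of the 9 genes were called in that test (22.2%), beside 4.31% of all genes. ATF4 itself averaged 878.9 ± 23.7 CPM in KO glucose-deprived, 897.5 ± 21.9 CPM in EV glucose-deprived, 428.2 ± 2.88 CPM in KO regular and 357.5 ± 5.58 CPM in EV regular cells (SD, n = 2 each). It rose with deprivation by 1.04 ± 0.03 (log2) in KO cells (adjusted p = 1.4e-09) and by 1.33 ± 0.03 in EV cells (adjusted p = 2.3e-10). KO cells had more ATF4 mRNA in regular medium (0.26 ± 0.03, adjusted p = 0.0015), a call that held without any single library, and in glucose-deprived medium the difference was −0.03 (adjusted p = 0.57). The gap between these knockout effects was −0.29 ± 0.05 (adjusted p = 0.0085), a call lost without EV glucose-deprived a (0.069) or EV regular a (0.080) and with no variance trend (0.066).

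Of 18 genes of lysosomal amino acid sensing (the Rag GTPases, Ragulator, the Sestrins, the CASTOR proteins and the folliculin complex), 9 rose and 7 fell with deprivation in KO cells, and 9 rose and 5 fell in EV cells. The called shares were 88.9% in KO cells, beside 73.3% of all genes, and 77.8% in EV cells, near the 76.2% of all genes. SESN2, the leucine sensor that restrains mTORC1, had 285.0 and 303.3 CPM in KO glucose-deprived libraries against 26.6 and 25.5 CPM in KO regular libraries, and 222.4 and 214.2 CPM in EV glucose-deprived libraries against 25.5 and 24.4 CPM in EV regular libraries. Its log2 fold change was 3.497 in KO cells and 3.13 in EV cells. FNIP1, a folliculin partner, rose by 0.88 in KO and 0.89 in EV cells. For knockout 5 of the 18 (27.8%, beside 19.6% of all genes) were called in glucose-deprived medium, of which SESN2 (0.43 ± 0.04, adjusted p = 1.9e-04) alone kept the call without any single library, and 0 were called in regular medium, with 1 at an unadjusted p under 0.05. Of 6 tested partners and other amino acid transporters, 3 rose and 3 fell with deprivation in KO cells and 2 rose and 3 fell in EV cells, which is 100% in KO cells beside 73.3% of all genes, and 83.3% in EV cells beside 76.2%. CLTRN, a trafficking partner of amino acid carriers in the kidney, was among the fallers, at −1.30 in KO and −1.41 in EV cells.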

How the data were processed

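RNA-seq was made from 8 libraries of LN229-TAZ(4SA) cells, 2 in each of 4 groups. Per the labels' protocols, TRIzol was used for extraction and SMART-Seq and Nextera XT kits, which do not mark strand, for the libraries. HISAT2, edgeR and GRCh38 are named in the submitters' processing notes, without versions, and the counting tool and annotation are not given in the sources used here. The deposited values are log2 CPM. In every library they were whole multiples of 1 read after an offset of 0.023 CPM, within 0.05 for 100% of genes. Printed CPM are the deposited log2 values raised back, with the offset removed. One read was worth 0.0095 to 0.0143 CPM, and counting error was not separated from the spread between libraries.

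The table's columns name the group but carry no replicate number, and all sample columns were used. Headers ending in GlcN were taken for glucose deprivation, an ending that the labels leave unexplained and that can also stand for glucosamine.

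limma 3.58.1 (R 4.3.3) with a variance trend was fitted to the log2 CPM of genes with a mean of at least 0, over all 8 libraries (4 residual degrees of freedom), with 5 comparisons and Benjamini-Hochberg adjustment within each over the 13057 genes. It was also run on simulated reads with the same spread for every gene and few changed genes. That setting differs from these data, so the run does not vouch for the calls here. Named transporter values per library are those of genes called for knockout or the interaction, or changed by at least 1 (log2) with deprivation at 5 CPM or more. SLC7A5, SLC38A9, SLC3A2, SESN2 and the genes under the filter were given values after these were seen. TXNRD1, TXNIP, NES, SOX2 and NUPR1 also carry values per library and stand outside that rule. Members and lists were chosen with earlier results of these data known. Positions and exon lengths are from GENCODE 29 (GRCh38), and promoter windows from RefSeq. Alternatives were median-of-ratios scaling, no filter, a mean of at least 1, log2(CPM + 1), no variance trend, only the compared groups, leaving out each library, and limma voom on rebuilt reads, the last chosen after seeing the data. The count tests planned before were not run, since the unit is log2. A marker and an overlapping gene are not reported here.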

Additional observations from a re-analysis of the deposited data

Results flagged for a closer look

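SLC7A1, the arginine and lysine importer, was picked out because its knockout effect differed between the media by a test of the difference itself. The effect in glucose-deprived medium was lower than in regular medium by −0.24 ± 0.04 on the log2 scale (adjusted p = 0.013, limma). The level was 552.7 and 556.1 CPM in KO glucose-deprived libraries, 571.6 and 560.8 CPM in EV glucose-deprived libraries, 401.8 and 390.6 CPM in KO regular libraries and 342.7 and 341.4 CPM in EV regular libraries. It was 1 of 23 transporters (4.35%) called in that test, beside 4.31% of all genes. Across the alternatives the adjusted p ranged between 0.0090 and 0.10. The call was lost without EV glucose-deprived a (0.096), EV glucose-deprived b (0.065), EV regular a (0.10) or EV regular b (0.096), and with no variance trend (0.076).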

How the results depend on the processing

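Of the called changes, 17 of 18 for deprivation in KO cells, 17 of 19 for deprivation in EV cells, 2 of 6 for knockout in glucose-deprived medium, 1 of 11 for knockout in regular medium and 0 of 1 for the interaction held in every alternative and without any single library. None of the called changes turned its sign. Without a variance trend 433 genes (214 higher, 219 lower) and 5 transporters (4 higher, 1 lower) were called for knockout in regular medium, and 223 genes (152 higher, 71 lower) and 0 transporters for the interaction; the cause was not tested. Leaving out each library in turn gave 168 to 1414 genes and 1 to 11 transporters for knockout in regular medium, 852 to 3058 genes and 2 to 6 transporters for knockout in glucose-deprived medium, 147 to 1579 genes and 0 to 3 transporters for the interaction, 9041 to 9365 genes and 18 to 19 transporters for deprivation in KO cells, and 8894 to 10125 genes and 17 to 19 transporters for deprivation in EV cells. The lone library of a group is then assumed to vary like the other groups.

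Alternatives were followed for every called change, and for uncalled values of SLC7A5 and the transporters plotted per library. Among these, signs turned only for uncalled values near 0. Whether other uncalled values turned sign was not examined. SLC15A4 for knockout in regular medium was 0.0013 under median-of-ratios scaling and between −0.033 and 0.018 without single libraries. Without single libraries, knockout in regular medium gave −0.012 to 0.13 for SLC7A5. Knockout in glucose-deprived medium gave −0.059 to 0.021 for SLC6A9, −0.027 to 0.057 for SLC36A1 and −0.013 to 0.044 for SLC38A2. Deprivation in EV cells gave −0.042 to 0.017 for SLC36A1, and the interaction −0.019 to 0.12 for SLC7A5. SLC43A1 for knockout in glucose-deprived medium passed only with no variance trend (adjusted p = 0.047, against 0.097). The planned count tests on rebuilt reads were not run. No paired analysis was possible because the table's columns carry no replicate numbers. Each group has 2 libraries, and how much of their spread comes from sequencing depth was not tested.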
